A study of Sus scrofa with 6 samples.

Results

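The genes described here are 10 genes of cyclic AMP (cAMP) breakdown and cAMP-dependent kinase activity, taken by name from a table of 13288 genes. They are the phosphodiesterases PDE2A, PDE3A, PDE3B, PDE4A, PDE4B, PDE4D and PDE8A and the protein kinase A (PKA) subunits PRKACA, PRKACB and PRKAR1A. All 10 were in the table and all 10 passed the filter on low values. RNA was sequenced from ventricular tissue of male Tibetan minipigs, with 1 library per animal. The sham group (n = 3, replicates 1 to 3) had thoracotomy without constriction, and the DAC group (n = 3, replicates 4 to 6) had the descending aorta constricted. Tissue was collected 12 weeks after surgery, and the constriction was meant to model heart failure in which the ejection fraction is preserved. The age of the minipigs and the part of the ventricles sampled for RNA were not given in the sources used here. The values are FPKM, fragment counts scaled by transcript length and by the mapped fragments of the library. Levels can thus be compared between genes of a sample, while a comparison between samples also depends on what else each library holds.

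In cardiomyocytes, cAMP is made by adenylyl cyclases below the β-adrenergic receptors and releases the catalytic subunits of PKA from its regulatory subunits. The freed kinase phosphorylates the calcium channels, ryanodine receptor, phospholamban and troponin I that set the force and relaxation of the beat. Phosphodiesterases end the signal by hydrolysing cAMP, and because each family sits at different membranes and complexes, they also decide where in the cell the signal is seen.

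In the DAC myocardium, PDE4D rose to 1.34 times and PDE2A fell to 0.750 times its sham mean, while the most abundant member, PDE3A, was at 0.964 times its sham mean. The summed level of the 14 cAMP phosphodiesterases in the table, of which PDE3A was the largest part, lay between 221 and 234 FPKM in all 6 minipigs. No PKA subunit passed the test, and PRKACB was low in a single DAC minipig. A differentially expressed gene (DEG) is a gene with an unadjusted P under 0.05 from limma's moderated test on log2(FPKM + 1), the threshold of the study, and each unadjusted P below comes from that test unless an alternative is named. Of the 10 members, 1 was an upregulated DEG, where 3.25% of all 11029 genes tested were, and 1 was a downregulated DEG, where 5.27% were. A single gene is the smallest count above 0 that 10 members can give, so nothing is read from these counts about the members as a group. All DAC samples lay above all sham samples for 1 member (6.01% of all genes tested) and below them for 1 (8.91%). The median log2 fold change was -0.061 over the members and -0.016 over all genes tested. No member reached an adjusted P under 0.05, and the members' adjusted P from limma with Benjamini-Hochberg adjustment was 0.522 or higher. No gene of the table reached it either, and none did when each gene kept its own variance. With single minipigs left out, 1 gene reached it without sham replicate 3 (adjusted P = 0.0247 from limma) and 1 without DAC replicate 6 (0.0295). At the unadjusted threshold there were 358 upregulated and 581 downregulated DEGs. The split of these calls depended on scaling: it was 500 upregulated and 407 downregulated once mitochondrially encoded genes were removed, 429 and 479 after median scaling, and 418 and 469 after quantile normalization.

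The libraries and the tissue were checked first. The summed FPKM was between 281377 and 308771 per sample, and FPKM gives no read depth. Mitochondrially encoded genes took up 24.0% to 25.3% of that sum in sham minipigs, 27.1% and 27.2% in DAC replicates 6 and 4, and 32.8% in DAC replicate 5. Of 11 cardiomyocyte markers, 8 were matched by symbol, 0 of them were DEGs, and their summed level was 14970 to 16070 FPKM in the sham group and 14450 to 17340 FPKM in the DAC group. TNNT2 and MYL2 were the largest parts of this sum. Every DAC value was below every sham value for ACTN2 (log2 fold change -0.13) and CKM (-0.24), as for 8.91% of all genes tested. The groups overlapped for the other matched markers. MYH6, TTN and MB were not matched by symbol. Of 8 fibroblast markers, 4 were upregulated DEGs (LUM, COL1A1, COL1A2 and COL3A1). The other 4 were not, with a log2 fold change of 0.24 for PDGFRA, 0.080 for DPT, -0.012 for DCN and -0.022 for TCF21. The summed level of all 8 was 532 to 617 FPKM in the sham group and 743 to 847 FPKM in the DAC group. Of 8 endothelial markers, KDR and EMCN were upregulated and VWF was a downregulated DEG, with sums of 120 to 173 FPKM and 119 to 168 FPKM. The others were not DEGs, with a log2 fold change of -0.26 for PECAM1, -0.22 for CDH5, -0.14 for TIE1, -0.037 for ERG and 0.19 for TEK. The smooth muscle and pericyte markers summed to 156 to 190 FPKM and 176 to 207 FPKM. By log2 fold change, 6 of them were higher and 2 lower in the DAC group, and CNN1 was the only DEG, upregulated. The leukocyte markers summed to 44.0 to 46.6 FPKM and 35.7 to 48.8 FPKM. Of the 6 leukocyte markers tested, 3 were higher and 3 lower in the DAC group, and CD163 was the only DEG, downregulated. The atrial markers MYL4 and SLN together were at 1.49 to 4.80 FPKM in the sham group, at 10.7 and 27.4 FPKM in DAC replicates 4 and 6 and at 1.71 FPKM in DAC replicate 5. The adipocyte markers ADIPOQ and CIDEC and the red blood cell markers HBM and ALAS2 stayed under 1 FPKM in every sample, while FABP4 and HBB did not. In bulk tissue, fewer cells of a type and less RNA per cell cannot be told apart.

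By level, the members stood in the order PDE3A, PRKAR1A, PRKACA, PRKACB, PDE4A, PDE4B, PDE4D, PDE3B, PDE8A and PDE2A. Over all 6 minipigs, PDE3A was at 108 ± 5.52 FPKM (SD, n = 6), above 97.8% of the genes listed, and PDE2A was at 7.38 ± 1.46 FPKM (SD, n = 6), above 64.1% of them. PDE3A was higher than PRKAR1A, PRKACA higher than PRKACB, PDE4A higher than PDE4B and PDE8A higher than PDE2A in 6 of 6 samples. For the other neighbours the order held in 4 of 6 samples (PDE4B above PDE4D) or in 5 of 6, and their ranges overlapped, as did those of PDE8A and PDE2A. PDE3A varied little between animals, with a coefficient of variation of 5.30% in the sham group and 5.15% in the DAC group, where PRKACA alone was lower at 4.36%. PDE4B varied most in the sham group (39.6%) and PRKACB most in the DAC group (52.6%).

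**Figure D1:**
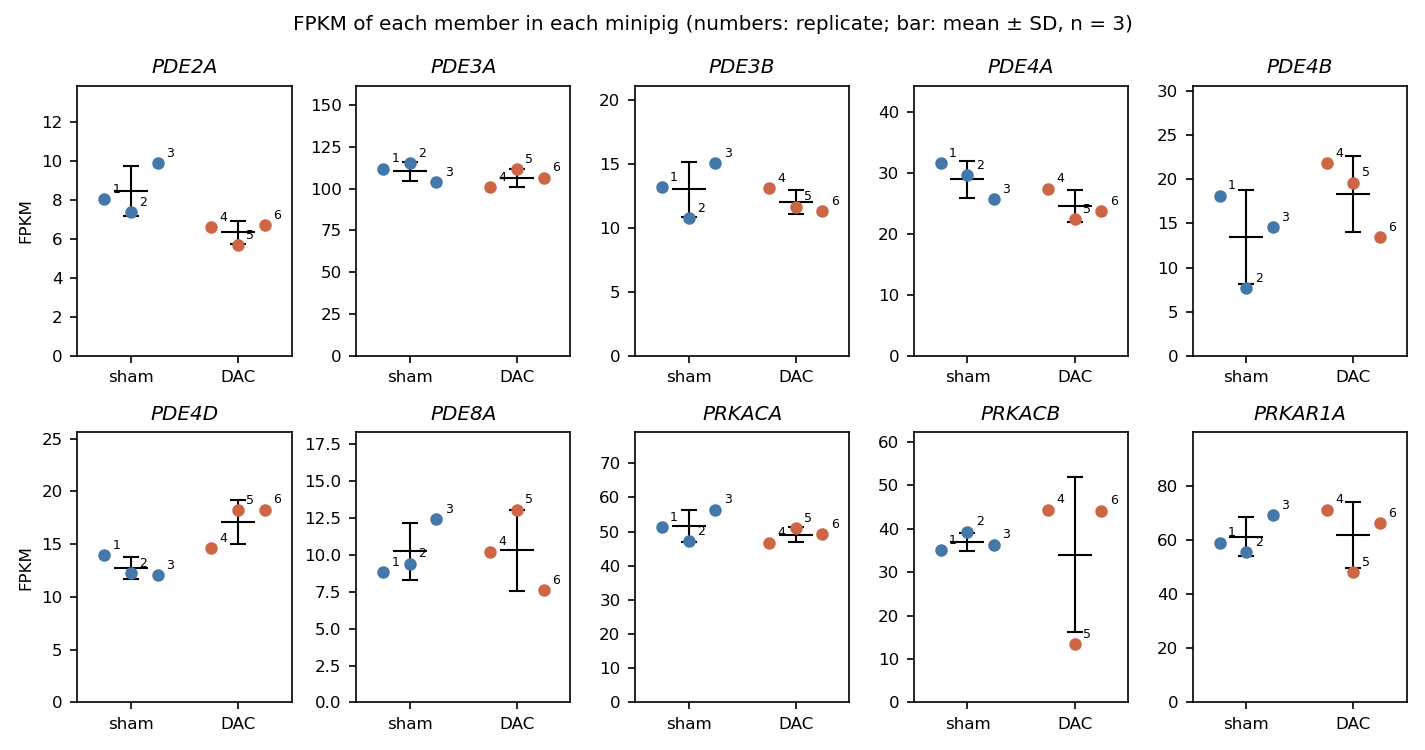
FPKM (vertical axis, starting at 0) of the 10 members in each of the 3 sham (blue) and 3 DAC (orange) minipigs, numbered by replicate, with the group mean and SD as black bars. The groups do not overlap for PDE2A and PDE4D, and PRKACB of DAC replicate 5, at 13.4 FPKM, lies far below the other 5 minipigs.

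PDE4D (ENSSSCG00000016929, chromosome 16 from 37897300 to 39154586, susScr11) codes for a cAMP-specific phosphodiesterase that is found in complexes with β-adrenergic receptors and the ryanodine receptor. It was at 14.0, 12.2 and 12.1 FPKM in sham replicates 1, 2 and 3 and at 14.6, 18.2 and 18.3 FPKM in DAC replicates 4, 5 and 6. Every DAC value was above every sham value, but the lowest DAC value was close to the highest sham value. The mean rose from 12.8 ± 1.06 to 17.1 ± 2.08 FPKM (SD, n = 3 each), which is 1.34 times the sham mean. The log2 fold change was 0.39 (standard error 0.13, 95% interval 0.092 to 0.68), with an unadjusted P of 0.0171 and an adjusted P of 0.522 from limma. The exact two-sided permutation P was 0.1, the smallest that 3 minipigs against 3 allow. With 1 minipig left out in turn, the log2 fold change was between 0.34 and 0.49, and the call of PDE4D was lost without sham replicate 2 (unadjusted P = 0.0523), sham replicate 3 (0.0572), DAC replicate 5 (0.0523) or DAC replicate 6 (0.0563). Of the 8 fibroblast markers, 4 were upregulated DEGs in the same comparison and 4 were not, and the part of fibroblasts in the rise of PDE4D was not tested.

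PDE2A (ENSSSCG00000029388, chromosome 9 from 7136644 to 7227964) codes for a phosphodiesterase of both cAMP and cGMP whose activity is raised by cGMP, so that it links the cyclic nucleotide pathways. It was at 8.04, 7.39 and 9.88 FPKM in sham replicates 1, 2 and 3 and at 6.61, 5.66 and 6.72 FPKM in DAC replicates 4, 5 and 6. All DAC samples were below all sham samples, and sham replicate 3 was the highest of the 6. The mean fell from 8.44 ± 1.29 to 6.33 ± 0.580 FPKM (SD, n = 3 each), or 0.750 of the sham mean. The log2 fold change was -0.36 (standard error 0.13, 95% interval -0.67 to -0.046), with an unadjusted P of 0.0301 and an adjusted P of 0.558 from limma. The exact two-sided permutation P was again 0.1. The call of PDE2A was lost without sham replicate 1 (unadjusted P = 0.0526), sham replicate 3 (0.103) or DAC replicate 5 (0.0893), or when each gene kept its own variance (0.0511), and its log2 fold change was then -0.25 at the closest to 0. Among the endothelial markers, VWF was a downregulated DEG and KDR and EMCN were upregulated DEGs. By log2 fold change, 5 of the 8 markers were lower and 3 higher in the DAC group, with a median of -0.089. The part of endothelial cells in the fall of PDE2A was not tested.

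PDE3A (ENSSSCG00000028662, chromosome 5 from 52413105 to 52738829) codes for the cGMP-inhibited phosphodiesterase that is the main target of the inotropic drug milrinone in the heart. It was at 112, 115 and 104 FPKM in the sham group and at 101, 112 and 107 FPKM in the DAC group. The groups overlapped, and the spread within each group was larger than the difference between their means of 110 and 106 FPKM. The log2 fold change was -0.053, and its 95% interval from -0.29 to 0.18 includes changes of either sign. PDE3B (ENSSSCG00000013388, chromosome 2 from 44416175 to 44614028), the relative known from insulin signaling in adipocytes, was at 13.2, 10.8 and 15.1 FPKM in the sham group and at 13.1, 11.7 and 11.3 FPKM in the DAC group. Its log2 fold change was -0.097 (95% interval -0.43 to 0.23). The ratio of PDE3A to PDE3B was 8.70 ± 1.91 in sham and 8.91 ± 1.05 in DAC minipigs (SD, n = 3 each).

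PDE4A (ENSSSCG00000013642, chromosome 2 from 69225395 to 69267971) and PDE4B (ENSSSCG00000003805, chromosome 6 from 146166681 to 146720127) are cAMP-specific enzymes of the same family as PDE4D. PDE4A was at 31.6, 29.6 and 25.7 FPKM in the sham group and at 27.4, 22.4 and 23.7 FPKM in the DAC group. Only DAC replicate 4 reached into the sham range, and the log2 fold change of -0.23 (95% interval -0.53 to 0.066) was not past the threshold. Without DAC replicate 4, which had the highest PDE4A of its group, the log2 fold change was -0.31 and PDE4A was a downregulated DEG (unadjusted P = 0.0492). PDE4B was at 18.2, 7.66 and 14.6 FPKM in the sham group and at 21.8, 19.6 and 13.5 FPKM in the DAC group. Its log2 fold change of 0.47 was larger than that of PDE4D, but the groups overlapped and the 95% interval ran from -0.26 to 1.20. Sham replicate 2 held the lowest PDE4B value, and without it the log2 fold change of PDE4B was 0.13. The ratio of PDE4B to PDE4D was between 0.626 and 1.30 in the sham group and between 0.739 and 1.49 in the DAC group.

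PDE8A (ENSSSCG00000001810, chromosome 7 from 52410779 to 52556884), a cAMP-specific enzyme of very high affinity, was at 8.85, 9.40 and 12.4 FPKM in the sham group and at 10.2, 13.1 and 7.61 FPKM in the DAC group. The highest and the lowest of the 6 values were both after DAC. The log2 fold change was -0.0066 with a 95% interval from -0.49 to 0.48; a change of either sign lies within it. The annotated position of PDE8A overlaps ZNF592 on the same strand, that of PDE4A overlaps CDC37 on the opposite strand, and that of PDE4B holds a listed gene with no symbol. How reads in such stretches were assigned is not given in the sources used here, so the values of these 3 members are less certain.

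**Figure D2:**
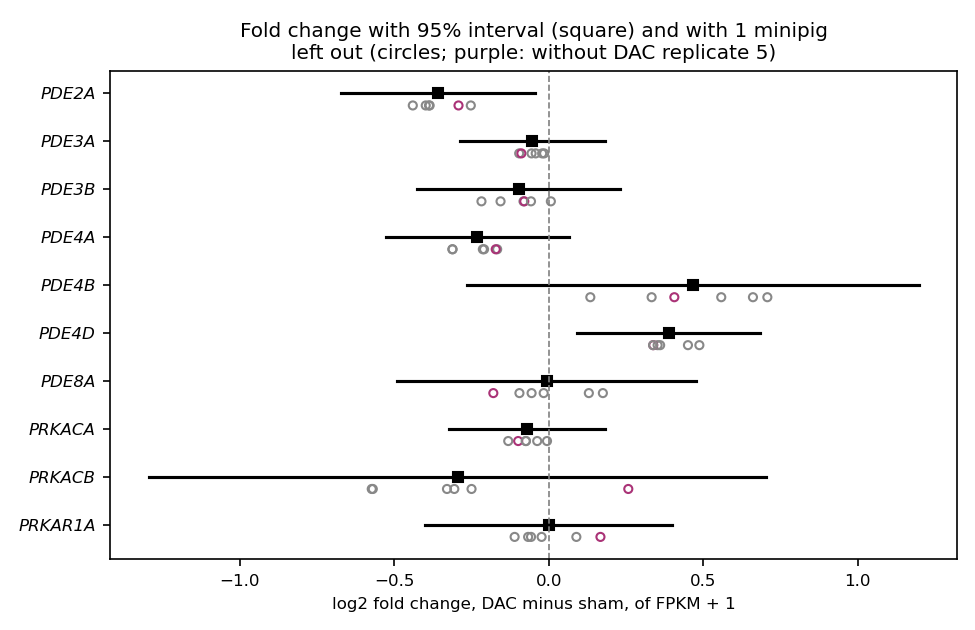
Log2 fold change of FPKM + 1, DAC minus sham (horizontal axis), for the 10 members: squares with lines give the value and its 95% interval from limma with all 6 minipigs, and open circles the value with 1 minipig left out. The intervals of PDE2A and PDE4D do not include 0, and PRKACB changes sign without DAC replicate 5 (purple).

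Added together, the 14 listed phosphodiesterases that can hydrolyse cAMP came to 234, 221 and 224 FPKM in the sham group and to 230, 228 and 222 FPKM in the DAC group. PDE8B and PDE11A were not matched by symbol and are not in this sum. The group means were 227 ± 6.57 and 227 ± 4.01 FPKM (SD, n = 3 each). The 7 members made up 87.0% of this sum in the sham group and 85.9% in the DAC group. PDE3A alone held 46.3% to 52.1% of it in the sham group and 43.8% to 49.0% in the DAC group. The share of PDE4D was 5.38% to 5.98% in the sham group and 6.37% to 8.22% in the DAC group, and that of PDE2A was 3.34% to 4.40% and 2.48% to 3.02%. These shares rest on the same values as the fold changes above and are not further evidence for them. The summed PDE4A, PDE4B and PDE4D came to 0.447 ± 0.0588 (SD, n = 3) of the summed PDE3A and PDE3B in the sham group and to 0.507 ± 0.0483 (SD, n = 3) in the DAC group. The groups overlapped for this ratio, with an exact two-sided permutation P of 0.3 and an adjusted P of 0.9 over the 6 ratios compared.

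**Figure D3:**
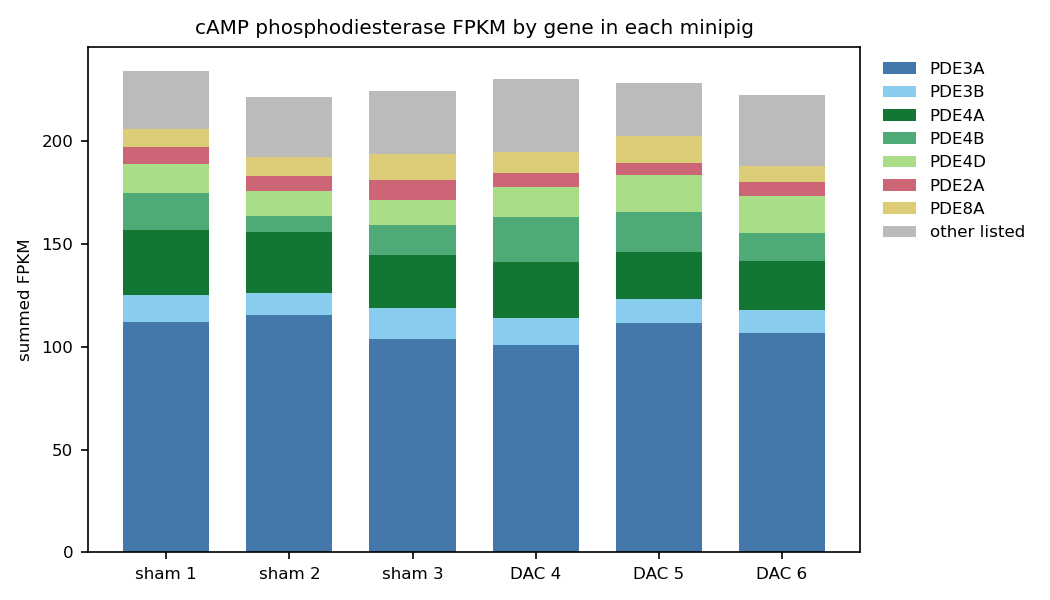
Summed FPKM (vertical axis, starting at 0) of the 14 listed phosphodiesterases that can hydrolyse cAMP in each minipig, stacked by gene; the 7 genes that are no members are pooled in grey. The column heights lie between 221 and 234 FPKM, and PDE3A is the largest part of every column.

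PRKACA (ENSSSCG00000013771, chromosome 2 from 65074870 to 65095553) and PRKACB (ENSSSCG00000040920, chromosome 6 from 129519962 to 129635517) code for the α and β catalytic subunits of PKA. PRKACA was at 51.2, 47.2 and 56.4 FPKM in the sham group and at 46.8, 51.0 and 49.3 FPKM in the DAC group. These groups overlapped, and the log2 fold change was -0.070 with a 95% interval from -0.32 to 0.18. PRKACB was at 35.1, 39.3 and 36.3 FPKM in the sham group and at 44.4, 13.4 and 44.2 FPKM in DAC replicates 4, 5 and 6. DAC replicate 5 was therefore the lowest of the 6 minipigs, and the other DAC minipigs were the highest. The log2 fold change of PRKACB was -0.29 with a 95% interval from -1.29 to 0.70, and it was 0.26 without DAC replicate 5 (unadjusted P = 0.0551), so this minipig sets its direction.

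In DAC replicate 5, PRKACB was 2.63 times lower than in the lowest of the other samples. A gap of this size or more below the other 5 samples was found in DAC replicate 5 for 33 of the 11029 genes tested (0.299%). Low values of this kind were more frequent in that library: 83 genes (0.753%) were under 0.5 times the lowest of the other samples, against 26 to 51 genes (0.236% to 0.462%) in each of the other 5 libraries. Of the 33 genes with a gap at least as large as its own, PRKACB was the most abundant in the lowest of the other samples, at 35.1 FPKM. The next, ERCC4, was at 11.1 FPKM there. The gap was not seen in the genes listed around PRKACB on chromosome 6. TTLL7 was at 4.75 FPKM in DAC replicate 5 and between 4.36 and 6.02 FPKM in the others, and SAMD13 was at 3.40 FPKM and between 2.29 and 4.05 FPKM. UOX was at 19.6 FPKM and between 13.2 and 21.1 FPKM, and RPF1 at 4.28 FPKM and between 3.68 and 4.11 FPKM. DAC replicate 5 also had the highest share of mitochondrially encoded FPKM, and the part of that share in the low PRKACB value was not tested. The counts of low genes and the comparison with neighbouring genes were chosen after the value of PRKACB was seen.

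PRKAR1A (ENSSSCG00000017259, chromosome 12 from 11662347 to 11681202) codes for the type I α regulatory subunit, which holds the catalytic subunits inactive until cAMP binds and whose loss causes Carney complex, a syndrome with cardiac myxomas. It was at 59.0, 55.5 and 69.2 FPKM in the sham group and at 71.2, 48.1 and 66.1 FPKM in the DAC group. The highest and the lowest value were again in the DAC group, with the lowest in DAC replicate 5. The log2 fold change was 0.00014 with a 95% interval from -0.40 to 0.40. PRKAR2A, the type II α regulatory subunit, was instead highest in DAC replicate 5 and lowest in DAC replicate 4. It was at 74.6, 71.4 and 62.4 FPKM in the sham group and at 59.8, 79.3 and 66.7 FPKM in the DAC group. The ratio of PRKAR1A to PRKAR2A was accordingly 1.19, 0.607 and 0.990 in DAC replicates 4, 5 and 6, and 0.791, 0.778 and 1.11 in the sham group.

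The 4 regulatory subunits together came to 131 to 137 FPKM in the sham group and 129 to 137 FPKM in the DAC group. The catalytic subunits PRKACA and PRKACB came to 86.4, 86.6 and 92.8 FPKM in the sham group and to 91.2, 64.4 and 93.5 FPKM in the DAC group. DAC replicate 5 had the lowest sum of both kinds, but its regulatory sum of 129 FPKM was close to the next lowest, 131 FPKM, while its catalytic sum lay far below the others. The ratio of PRKACA to PRKACB was 3.82 in that minipig and between 1.05 and 1.55 in the other 5. PRKAR1A came to 0.690 ± 0.0526 (SD, n = 3) of the catalytic sum in the sham group and to 0.745 ± 0.0371 (SD, n = 3) in the DAC group. None of the 6 ratios had groups that did not overlap, and their exact two-sided permutation P was between 0.2 and 1, with an adjusted P between 0.9 and 1.

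**Figure D4:**
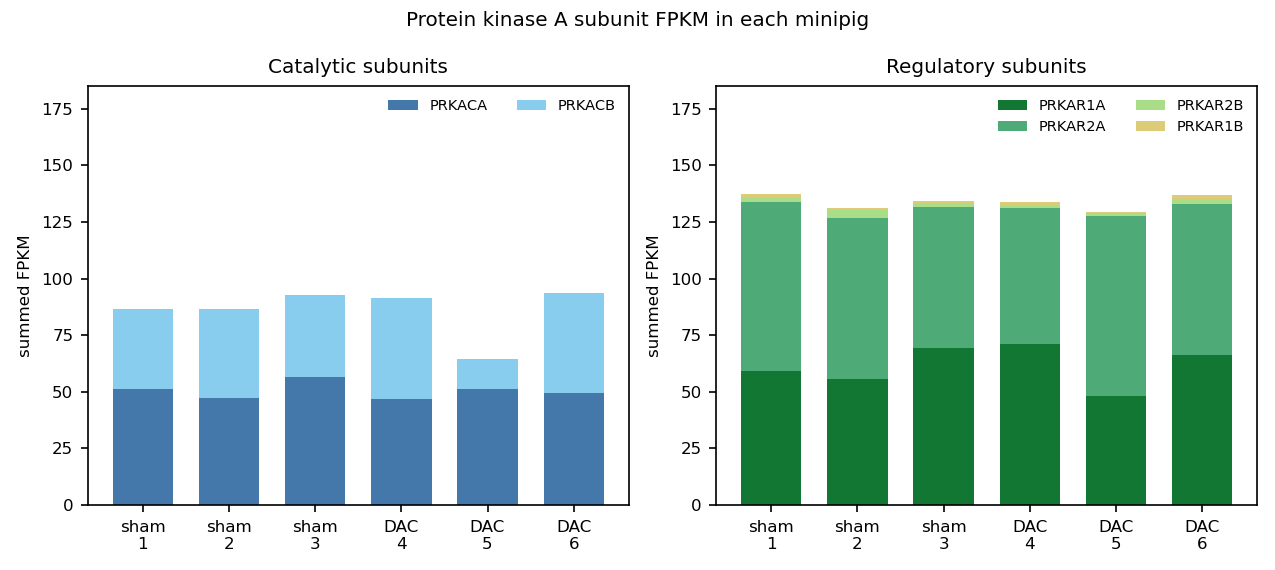
Summed FPKM (vertical axes, starting at 0) of the catalytic subunits PRKACA and PRKACB (left) and of the 4 regulatory subunits (right) in each minipig, stacked by gene. The catalytic sum of DAC replicate 5 is 64.4 FPKM against 86.4 to 93.5 FPKM in the others, while the regulatory sums lie between 129 and 137 FPKM.

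Around the members, 101 further genes of cAMP signaling were listed by role, of which 79 were in the table and 71 were tested. Of these 71, 3 were upregulated DEGs (4.23%) and 6 were downregulated DEGs (8.45%), against 3.25% and 5.27% of all genes tested. Their median log2 fold change was -0.044, against -0.016 over all genes tested. On average, 43 of the 71 were lower after DAC. The share of lower genes among all genes tested was not counted, so nothing is read from this. None of their adjusted P from limma was under 0.05. Upstream of cAMP, the receptor ADRB1 was a downregulated DEG. ADRB1, the main β-adrenergic receptor of the cardiomyocyte, was at 34.1, 32.0 and 27.0 FPKM in the sham group and at 20.3, 18.8 and 24.1 FPKM in the DAC group, without overlap. Its log2 fold change was -0.54 (unadjusted P = 0.00553 and adjusted P = 0.482 from limma). Of 9 tested adenylyl cyclases and G protein subunits, ADCY9 alone was a DEG, and it fell from 6.22 ± 1.03 to 4.12 ± 0.195 FPKM (SD, n = 3 each), a log2 fold change of -0.49.

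Among the other phosphodiesterases that can hydrolyse cAMP, 0 of 4 tested were DEGs, and the smallest P was that of PDE1A, a calcium- and calmodulin-dependent enzyme, with a log2 fold change of 0.29 (unadjusted P = 0.109 from limma). The largest non-member was PDE7A, named after its values were seen, at 17.8 ± 1.25 FPKM on average in sham and 20.0 ± 4.42 FPKM in DAC minipigs (SD, n = 3 each). Of 3 tested genes of the cGMP-selective families, PDE5A, the target of sildenafil, was an upregulated DEG, and PDE9A and PDE6D, which codes for a subunit without catalytic activity, were not. It was at 2.10, 1.55 and 2.09 FPKM in the sham group and at 2.61, 2.81 and 2.50 FPKM in the DAC group, for a log2 fold change of 0.33. The groups of PDE5A did not overlap. Of 7 further PKA subunits and inhibitor proteins, PKIB, a PKA inhibitor peptide, was a downregulated DEG at a low level, from 1.66 ± 0.605 to 0.866 ± 0.279 FPKM (SD, n = 3 each).

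None of 10 tested A-kinase anchoring proteins, which tether PKA beside its substrates, was a DEG, and their median log2 fold change was 0.0085. The smallest P was that of AKAP9 (log2 fold change 0.20, unadjusted P = 0.0946 from limma). None of 6 other tested cAMP receptors and none of 7 phosphatases that oppose PKA was a DEG, with HCN2 (log2 fold change -0.22) and PPP2R1A (-0.23) nearest to the threshold. The exporter ABCC4 and the channel HCN4 were not matched by symbol. Of 10 tested PKA substrates of the heart, RYR2 and KCNQ1 were downregulated DEGs. RYR2, the calcium release channel of the sarcoplasmic reticulum, was at 366 ± 66.5 FPKM on average in sham and 274 ± 37.5 FPKM in DAC minipigs (SD, n = 3 each), and its groups overlapped. KCNQ1, a potassium channel of repolarization, was at 34.4 ± 2.49 FPKM and 27.8 ± 2.06 FPKM (SD, n = 3 each). Phospholamban was not matched by symbol.

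Of 14 tested genes around the cAMP-dependent transcription factor CREB, most of them known to respond to it and 3 of them its coactivators (CRTC1, CRTC2 and CRTC3), 2 were upregulated and 1 was a downregulated DEG, and their median log2 fold change was -0.0047. NR4A3, an orphan nuclear receptor, was at 28.2, 17.0 and 12.6 FPKM in the sham group and at 37.4, 53.4 and 70.9 FPKM in the DAC group, for a log2 fold change of 1.47. PPARGC1A, a coactivator of mitochondrial genes, was at 20.1 to 25.6 FPKM in sham and 25.3 to 46.7 FPKM in DAC minipigs, with overlap, for a log2 fold change of 0.54. SIK1, a kinase that restrains the CREB coactivators, was at 41.0, 32.1 and 29.1 FPKM in the sham group and at 12.6, 4.86 and 17.0 FPKM in the DAC group, for a log2 fold change of -1.62. The DEGs of this list thus lay on both sides of 0. Of the 9 DEGs in the wider lists, ADRB1, ADCY9, NR4A3 and SIK1 stayed DEGs under each of the 14 alternatives tried, and the other 5 were lost under at least 1 of them. RYR2 (unadjusted P = 0.157) and KCNQ1 (0.0752) were lost under quantile normalization, and also when mitochondrially encoded genes were removed (0.0682 and 0.0605). PDE5A and PKIB were not tested at a minimum of 5 FPKM. With single minipigs left out, the largest unadjusted P was 0.1004 for PDE5A (without sham replicate 2), 0.115 for PKIB (without DAC replicate 5), 0.155 for RYR2 and 0.104 for KCNQ1 (both without sham replicate 1) and 0.128 for PPARGC1A (without sham replicate 3). Each of the 6 minipigs ended at least 1 of these calls when left out.

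**Figure D5:**
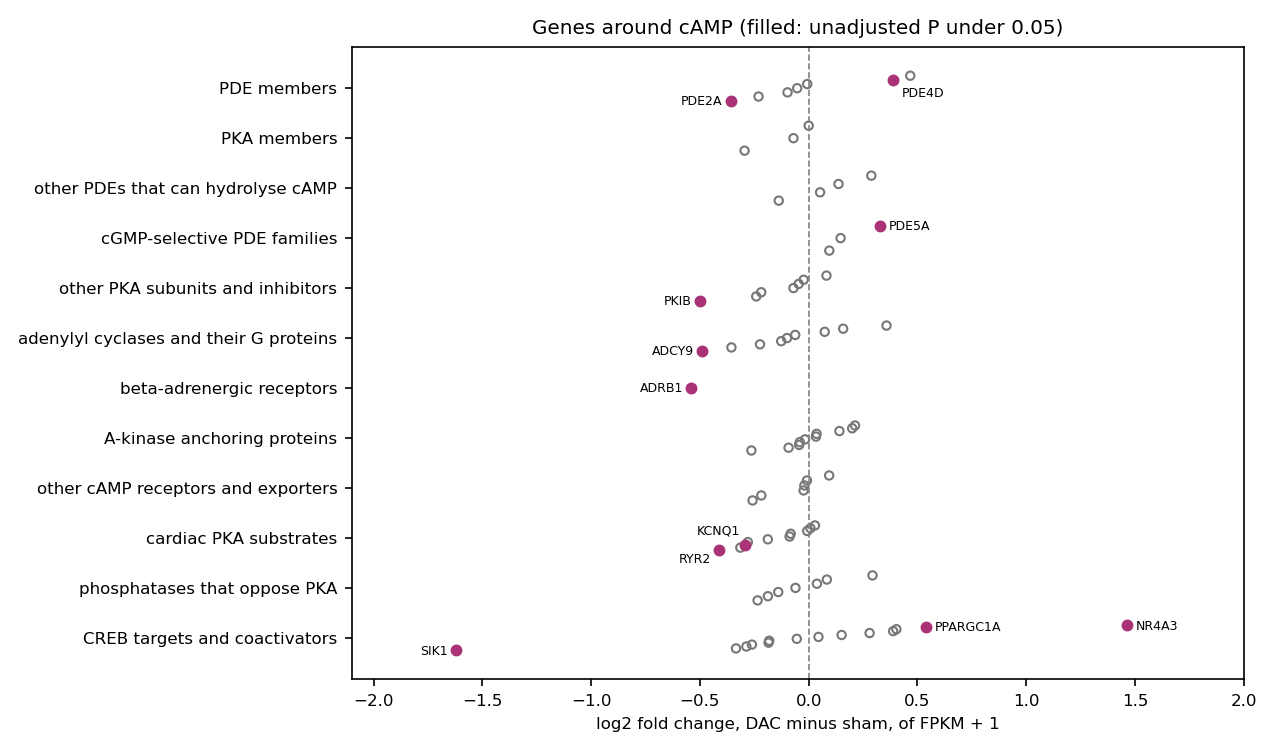
Log2 fold change of FPKM + 1, DAC minus sham (horizontal axis), of each tested member and of 71 further genes around cAMP, in rows by role; filled points are genes with an unadjusted P under 0.05 from limma. ADRB1 lies below 0, PDE2A and PDE4D on opposite sides of it, and SIK1 (-1.62) and NR4A3 (1.47) farthest out.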

How the data were processed

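Ventricular RNA of 3 sham and 3 DAC minipigs was made into libraries with NEBNext Ultra reagents, and both ends of the fragments were read on an Illumina HiSeq instrument. The authors deposited one table of FPKM with a column for each minipig, and all 6 columns were used. The submitters' processing notes name HISAT2 and the genome build susScr11; the program that made the FPKM, its annotation, its use of strand and its handling of shared reads are not given in the sources used here. The highest value of every listed gene is 0.500 FPKM or more. The position of all 10 members overlapped that of the same symbol in the RefSeq annotation of Sscrofa11.1, and 520 genes without a symbol were given one from a table of identifiers. No sequences are printed, because no sequence file was used here.

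From the deposited FPKM, log2(FPKM + 1) was computed, and the 11029 genes that reached 1 FPKM in 3 or more samples were compared between DAC and sham with limma 3.58.1 in R 4.3.3, with a mean-variance trend. Fold changes on this scale understate those of low genes. P was adjusted over all genes tested. Ratios of members within a sample were compared with two-sided exact permutation tests (scipy 1.17.1), adjusted over 6 ratios. The precision is given by the spread between 3 minipigs a group, since FPKM gives no depth. The steps were tested on simulated data. The labels name no batch. The members and lists were chosen with earlier results of these data known. The text names all members, every DEG of each wider list or else the gene with its smallest P, and PRKAR2A; 1 gene of the wider lists is not reported here and was taken out of their counts. The alternatives tried were a minimum of 5 FPKM, no filter, a pseudocount of 0.1, median scaling, quantile normalization, mitochondrially encoded genes left out, the variance of each gene on its own, sample weights and each minipig left out.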

Additional observations from a re-analysis of the deposited data

How the results depend on the processing

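PDE4D stayed above 0 and PDE2A below 0 under all 14 alternatives. Leaving out 1 minipig could not change either sign, because the groups of both genes do not overlap. The settings of filter and variance leave the fold change itself as it was. These signs are therefore no further evidence for the 2 differences, and both calls were lost under some of the alternatives. With 1 minipig left out, the upregulated members numbered 0 to 1 and the downregulated 0 to 2; the latter were 0 with the variance of each gene on its own. With 1 minipig left out, the downregulated genes of the wider lists numbered 4 to 7, and those of all genes tested 359 to 674 (359 without sham replicate 1, 387 without sham replicate 3). A minimum of 5 FPKM, with 6271 genes tested, left 165 upregulated genes in the table. Members near 0 changed sign: PDE8A was at 0.034 with mitochondrially encoded genes left out, 0.026 after quantile normalization and 0.017 after median scaling, PDE3A at 0.029 after quantile normalization, and PRKAR1A at -8.0e-05 with a pseudocount of 0.1. With 1 minipig left out, the log2 fold change ran from -0.18 to 0.18 for PDE8A, -0.11 to 0.17 for PRKAR1A, -0.22 to 0.0071 for PDE3B and -0.57 to 0.26 for PRKACB. The log2 difference of the ratio then ran from -0.10 to 0.21 for PDE3A to PDE3B, -0.24 to 0.35 for PDE4B to PDE4D, -0.36 to 0.56 for PRKACA to PRKACB and -0.18 to 0.30 for PRKAR1A to PRKAR2A. The cause of these changes was not tested. No paired analysis was possible because the groups hold different minipigs. The paper assigned more minipigs to sham or DAC at random than were sequenced, and excluded 1 of each group for unstable heart rates. How the 3 minipigs a group were picked for RNA was not given in the sources used here. The 3 minipigs a group and an unknown read depth limit the precision.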

Other observations

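A receptor above cAMP that is in none of the lists had a larger fold change than the β-adrenergic receptor ADRB1. ADCYAP1R1, the receptor of the peptide PACAP, which raises cAMP through the stimulatory G protein, was at 103, 80.8 and 75.0 FPKM in sham replicates 1, 2 and 3. It was at 62.6, 28.1 and 42.2 FPKM in DAC replicates 4, 5 and 6, below every sham sample. Its mean was 86.1 ± 14.5 FPKM in sham and 44.3 ± 17.3 FPKM in DAC minipigs (SD, n = 3 each), a ratio of 0.514. With limma the adjusted P was 0.500, and the log2 fold change was between -1.28 and -0.72 under the alternatives tried, with an unadjusted P of at most 0.0463. ADCYAP1R1 was chosen after its values were seen, and its difference from ADRB1 was not tested.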
